A study of Mus musculus with 8 samples.

Results

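The nuclear-encoded subunit genes of mitochondrial complex I were examined in skeletal muscle of immobilized mice. Members were the protein-coding genes whose symbol starts with Nduf, then a, b, c, s or v, then a number. Of 55487 annotated genes, 37 were members, and all 37 had at least 10 counts in every library, as did 15135 genes in all. The muscle came from 8 male C57BL/6J mice aged 10 weeks, whose hindlimbs were both held in casts for 8 days. All 8 mice were injected intraperitoneally 2 times per day with K14Q MOTS-c, a variant of the mitochondrial peptide MOTS-c, to a daily dose of 15 mg/kg. These mice were the only group analysed here, untreated and wild-type MOTS-c-treated mice were not, and each result describes how the subunit genes compared with each other and between the 8 mice. The sample labels name vastus lateralis as the tissue, whereas the study's methods name gastrocnemius, and the muscle is therefore called skeletal muscle here.

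Complex I is the entry point of the respiratory chain, where NADH is oxidized, its electrons are passed to ubiquinone and protons are pumped across the inner mitochondrial membrane. Its core subunits carry out catalysis: those of the N module bind NADH and those of the Q module bind ubiquinone in the arm that reaches into the matrix, while the proton-pumping core of the membrane arm is made from mitochondrial DNA. Accessory subunits, all encoded in the nucleus, surround the core and are needed for its assembly and stability. In skeletal muscle, the complex is most abundant in oxidative fibres, and the nuclear and mitochondrial genomes must both supply its parts.

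The 37 members lay on 15 chromosomes. Catalytic core subunits made up 7 of them, of which 3 belong to the N module (Ndufv1, Ndufv2 and Ndufs1) and the others, among them Ndufs3, Ndufs7 and Ndufs8, to the Q module. Another 28 were accessory subunits, comprising 12 Ndufa, 10 Ndufb, 2 Ndufc, 3 Ndufs genes and Ndufv3. The remaining 2 match by name only, since Ndufa4 is now placed in complex IV (cytochrome c oxidase) and Ndufa4l2 is its hypoxia-responsive paralog. A further 4 matches were not protein-coding in the annotation and stood outside the rule, namely the long non-coding Ndufb1-ps and the processed pseudogenes Ndufb4c, Ndufs6b and Ndufa11b. The acyl carrier subunit Ndufab1 also stands outside it by its symbol.

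Recovered library totals ran from 23985356 to 33012497 counts, of which the 10 most abundant genes held 18.78% to 26.19%. No library repeated another, because the chi-square per degree of freedom over genes was between 13.63 and 98.48 for the 28 library pairs. Skeletal muscle markers were abundant in every mouse, with a summed normalized count over 7 genes of 1635617 in mouse 3 to 3302613 in mouse 1. A normalized count is the number of reads on a gene divided by the library's size factor, as deposited. Bulk muscle RNA was measured, so fewer cells of a type and less RNA per cell cannot be told apart.

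Several members have processed pseudogenes, which are intronless copies of an mRNA inserted elsewhere in the genome, so that a read can match both. Aligned to the annotated pseudogene transcripts (at least 90% identity over at least 200 bases), 12 members had 16 such copies. Coding stretches of the 4 members whose copies held 10% or more of the member's own level are shown because they let a reader see how little separates gene from copy. Each stretch has 100 bases of the GRCm38 transcript, and capitals mark the bases that differ between the member and its copy.
Ndufb4, coding bases 1 to 100: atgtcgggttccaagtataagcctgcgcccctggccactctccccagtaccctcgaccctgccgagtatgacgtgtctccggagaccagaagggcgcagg
Ndufb4c, same stretch: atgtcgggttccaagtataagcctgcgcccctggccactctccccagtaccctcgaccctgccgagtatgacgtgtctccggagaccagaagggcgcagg
Ndufs5, coding bases 6 to 105: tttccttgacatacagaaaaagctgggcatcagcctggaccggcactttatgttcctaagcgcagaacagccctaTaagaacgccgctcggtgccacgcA
BC002163, same stretch: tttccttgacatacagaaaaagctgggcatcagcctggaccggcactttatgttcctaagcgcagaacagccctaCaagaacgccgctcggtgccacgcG
Ndufa12, coding bases 37 to 136: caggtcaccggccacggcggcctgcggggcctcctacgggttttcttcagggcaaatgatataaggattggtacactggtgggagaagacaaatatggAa
Gm15920, same stretch: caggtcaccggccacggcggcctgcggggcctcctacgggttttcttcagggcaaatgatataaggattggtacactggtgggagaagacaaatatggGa
Ndufs3, coding bases 13 to 112: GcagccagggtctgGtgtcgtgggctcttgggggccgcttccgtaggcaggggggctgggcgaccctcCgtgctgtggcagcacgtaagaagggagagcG
Gm12251, same stretch: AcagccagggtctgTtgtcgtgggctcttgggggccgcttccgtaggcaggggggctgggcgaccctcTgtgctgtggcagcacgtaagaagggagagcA

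Ndufb4c (chr15:73809507-73809896, minus strand, GRCm38) was identical to Ndufb4 over all 390 bases aligned, which is the whole coding sequence. BC002163 on chromosome 16 matched Ndufs5 at 99.37% over 319 bases and differed at T81C and A105G. Gm15920 on chromosome 5 matched Ndufa12 at 99.50% over 402 bases, with A135G and T414C as its differences. Gm12251 on chromosome 11 matched Ndufs3 at 98.61% over 792 bases with 11 differences, of which G13A, G27T, C81T and G112A lie in the stretch shown. In each substitution the member's base comes first, and positions are counted from 1 at the first base of the start codon.

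The normalized counts listed for these pseudogenes moved with those of the members. Ndufb4c ranged from 1532 in mouse 4 to 2182 in mouse 8, with a mean of 1863 ± 206.7 (SD, n = 8), and stood at 85.32% to 88.14% of Ndufb4 in the single mice. Over the 8 mice, r of the log2 levels of Ndufb4 and Ndufb4c was 0.9954, a description of values in which reads can match both. BC002163 had 871.9 to 1458 normalized counts, or 69.95% to 75.58% of Ndufs5. Gm15920 ranged from 1689 to 2623, which was 67.40% to 73.99% of Ndufa12, and Gm12251 from 931.7 to 1627, which was 34.01% to 38.22% of Ndufs3. In all 4 pairs the share was nearly the same in every mouse, whichever mouse was high or low. The copies of the other 8 members came to between 0 and 4.806% of the member, and the longest identical run was 97 bases or less for those copies and 182 bases or more for Ndufb4c, BC002163, Gm15920 and Gm12251. A second copy of Ndufs3, Gm11927, with a longest run of 50 bases, had 0 to 1.099 normalized counts. How reads that match several places were counted is not given in the sources used here, so the levels of Ndufb4, Ndufs5, Ndufa12 and Ndufs3 are uncertain.

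**Figure D1:**
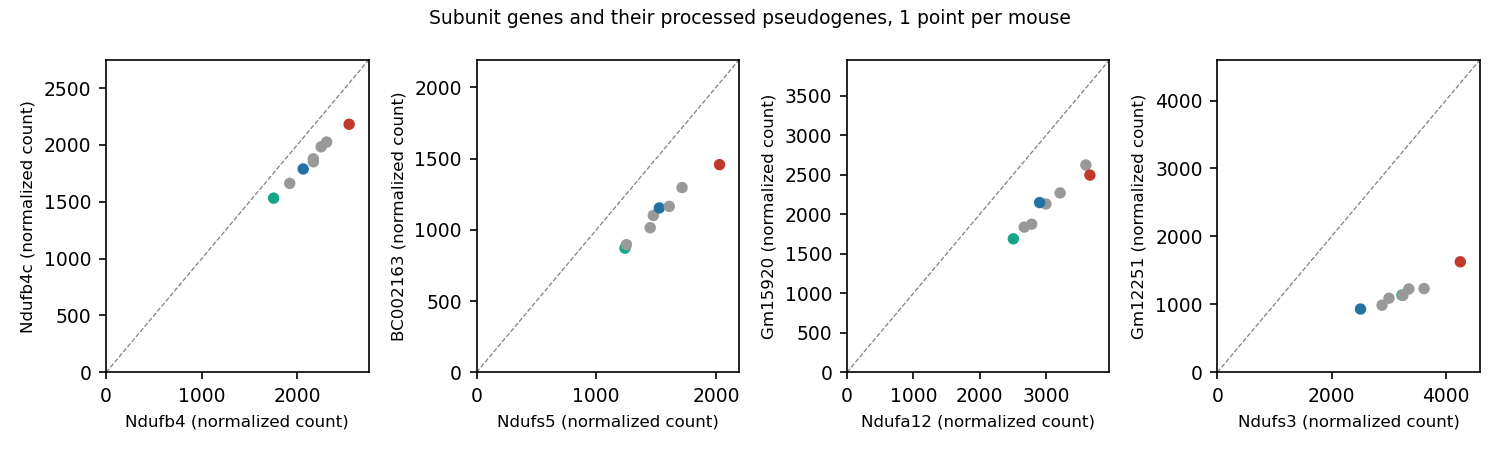
Normalized count of the pseudogene copy (vertical axis) against that of the subunit gene (horizontal axis) for Ndufb4, Ndufs5, Ndufa12 and Ndufs3, with 1 point per mouse (red mouse 8, blue mouse 2, green mouse 4, grey the others) and a dashed line of equality. Points lie along a line below equality, with the copy at 85.32% to 88.14% of Ndufb4 and 34.01% to 38.22% of Ndufs3.

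Exons of other genes overlapped those of 16 members, on the opposite strand in 14 of them. On the same strand, Gm49356 shared 201 exon bases with Ndufb9 and had a mean of 1151 normalized counts, Gm20538 shared 134 with Ndufb8 at 1353, and Gm42420 shared 145 with Ndufb2 at 258.7. On the opposite strand, the longest overlap was that of Ndufb5 with the mitochondrial ribosomal protein gene Mrpl47, at 616 exon bases and 345.8 normalized counts. Without a stated strand setting, reads in such stretches cannot be assigned to one gene, and the values of these members carry that uncertainty.

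Promoter sequences from RefSeq (GRCm38.p6; 250 bases before to 50 bases after the start) were matched for 32 members. Motifs of 4 factors known to act on nuclear genes of respiration were searched on both strands. The YY1 motif AAGATGGCG was found in the promoters of 5 of 32 members (15.6%, against 1.64% of 27025 genes), namely Ndufa9, Ndufc1, Ndufs4, Ndufs6 and Ndufs7. The NRF1 motif GCGCATGCG was found in 2 members, Ndufa8 and Ndufa11 (6.25% against 1.95% of all genes). The GABPA motif CCGGAAGT was in Ndufs3 only (3.12% against 4.31%), and the estrogen-related receptor motif AAGGTCA in Ndufb2, Ndufb4 and Ndufs5 (9.38% against 5.38%). None of the 4 motifs contains another, the NRF1 motif of Ndufa11 is read on both strands 1 base apart, and 11 members held at least 1 of them. Windows of 30 bases are shown for the 3 motifs found in more than 1 member, YY1, NRF1 and the estrogen-related receptor motif (ERR), with the motif in capitals and each written along the gene's strand.
Ndufa9, YY1, chr6:126849096-126849125, minus strand: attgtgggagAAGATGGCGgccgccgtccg
Ndufc1, YY1, chr3:51408914-51408943, minus strand: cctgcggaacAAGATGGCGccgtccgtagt
Ndufs4, YY1, chr13:114388045-114388074, minus strand: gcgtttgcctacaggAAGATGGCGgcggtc
Ndufs6, YY1, chr13:73328433-73328462, minus strand: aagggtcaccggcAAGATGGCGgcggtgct
Ndufs7, YY1, chr10:80249463-80249492, plus strand: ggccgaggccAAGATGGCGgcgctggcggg
Ndufa8, NRF1, chr2:36049328-36049357, minus strand: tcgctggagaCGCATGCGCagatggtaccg
Ndufa11, NRF1, chr17:56717692-56717721, plus strand: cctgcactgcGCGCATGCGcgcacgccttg
Ndufb2, ERR, chr6:39592374-39592403, plus strand: gagcagcagtAAGGTCAgccaagagcacct
Ndufb4, ERR, chr16:37654404-37654433, minus strand: cctgagcctgAAGGTCAgactcgagagggc
Ndufs5, ERR, chr4:123718395-123718424, minus strand: ttctcgagtgTGACCTTgctcaagtagcac
In all 5 YY1 matches the ATG within the motif was the annotated start codon of the gene, and the motif began between 22 and 35 bases after the start of transcription. The NRF1 match of Ndufa8 and the ERR match of Ndufs5 are on the opposite strand and therefore read as the reverse complement. A match describes letters only and does not show that the factor binds there.

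Among the N module core genes, the highest mouse stood at 1.308 to 1.539 times the lowest. Ndufv1 (chr19:4007384-4012806), the subunit that binds NADH and FMN, ranged from 3069 normalized counts in mouse 2 to 4580 in mouse 5, with a median of 3943 and a mean of 3962 ± 459.9 (SD, n = 8). Ndufv2 (chr17:66078638-66101559), an iron-sulfur partner of Ndufv1, ran from 3245 in mouse 4 to 4994 in mouse 8 with a median of 3925 (mean 3904 ± 534.7). Ndufs1 (chr1:63143596-63176833), the largest subunit of the complex and the carrier of several iron-sulfur clusters, ran from 4304 in mouse 3 to 5631 in mouse 7 with a median of 4974 (mean 5021 ± 493.6). Ndufv1 and Ndufs1 were thus among the 3 members that did not peak in mouse 8.

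The Q module core genes described here shared their lowest and their highest mouse. Ndufs3 (chr2:90894634-90904827), a subunit of the matrix arm, ranged from 2508 in mouse 2 to 4256 in mouse 8 with a median of 3242 (mean 3264 ± 521.5). Ndufs7 (chr10:80249121-80256794), which holds the last iron-sulfur cluster before ubiquinone, ranged from 1434 in mouse 2 to 2056 in mouse 8 with a median of 1667 (mean 1678 ± 183.1). Ndufs8 (chr19:3908863-3912774), another iron-sulfur subunit, ranged from 863.6 in mouse 2 to 1061 in mouse 8 with a median of 918.7 (mean 926.8 ± 64.96). Mouse 2 was the lowest and mouse 8 the highest for each of these 3 genes.

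Accessory subunits on the matrix side were highest in mouse 8 as well. Ndufa10 ran from 3774 to 4983 (median 4262, mean 4292 ± 386.2) and Ndufa9, which sits beside the ubiquinone pocket, from 2188 to 3381 (median 2582, mean 2620 ± 348.1). Ndufs4, whose loss causes Leigh-like disease in mice, ran from 1991 to 2902 (median 2268), and Ndufs6, a zinc-binding subunit, from 891.7 to 1455 (median 1104). Ndufv3, a small subunit of the N module, had 597 to 1128 normalized counts (median 813.4, mean 824 ± 168.8). For these 5 genes the lowest mouse was mouse 2 or mouse 4. Ndufa12, one of the members with an abundant copy, ran from 2505 to 3658 (median 2948). Ndufa5 ran from 1340 to 1997 (median 1444), Ndufa6 from 1624 to 2370 (median 1947) and Ndufa7 from 992.2 to 1326 (median 1131). Ndufa6 belongs to the LYR protein family that contacts the acyl carrier subunit. Ndufa2, which has a thioredoxin-like fold, ran from 626.3 to 977.5 (median 721.5, mean 734.7 ± 108.9).

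Accessory subunits in or next to the membrane arm were likewise highest in mouse 8. Ndufb8 ran from 2787 to 4007 (median 3179, mean 3207 ± 372.6), and Ndufb9, an LYR protein, from 2664 to 3854 (median 3067, mean 3118 ± 354.9). Ndufb5 ran from 2014 to 2683 (median 2341), Ndufb10 from 1767 to 2787 (median 2312) and Ndufb4 from 1753 to 2544 (median 2170). Ndufb10, Ndufb7, Ndufa8 and Ndufs5 belong to the subunits with paired cysteine motifs that face the intermembrane space. Ndufa8 ran from 1466 to 2309 (median 1874), Ndufs5 from 1240 to 2030 (median 1502), and Ndufb7 from 694.9 to 1226 (median 809.1, mean 849.7 ± 168.8). Ndufb11 and Ndufa1 are encoded on the X chromosome. Ndufb11 ran from 1528 to 2188 (median 1681, mean 1731 ± 205.5) and Ndufa1 from 487.1 to 909.7 (median 556.6, mean 588.7 ± 138.7). Ndufa13, also known as Grim19, ran from 1840 to 2871 (median 2166, mean 2181 ± 335.1). Ndufa3 ran from 763.1 to 1238 (median 842.2, mean 882.1 ± 151.1) and Ndufa11 from 595.5 to 934.9 (median 732.9). Every one of them had its highest value in the same mouse.

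The remaining membrane subunits are small proteins. Ndufb3 ran from 811.7 to 1459 (median 1083), Ndufb6 from 619.3 to 975.4 (median 735.9) and Ndufb2 from 539.9 to 814.4 (median 678.8, mean 664.9 ± 92.46). Ndufc2 ran from 1137 to 1536 (median 1323) and Ndufc1 from 603.1 to 862.6 (median 698.6). Mouse 8 again held the highest value of all 5 genes.

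The genes matched by name only went separate ways. Ndufa4 (chr6:11900292-11907497) ranged from 3810 in mouse 2 to 5380 in mouse 8, with a median of 4116 (mean 4256 ± 509.4), and so followed the complex I genes. Ndufa4l2 (chr10:127514967-127517154) had the fewest reads, from 57.33 in mouse 1 to 79.98 in mouse 2 with a median of 68.89 (mean 68.23 ± 8.916), and mouse 8 stood near its lower end at 58.02. Its counts were 53 to 87 per library, so counting error weighs more on it than on any other member. Outside the rule, the acyl carrier Ndufab1 ranged from 1155 in mouse 2 to 1893 in mouse 8, and Ndufb1-ps from 1156 in mouse 4 to 1753 in mouse 8. The pseudogene Ndufs6b had 32.91 to 54.11 normalized counts and Ndufa11b 2.162 to 19.70.

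**Figure D2:**
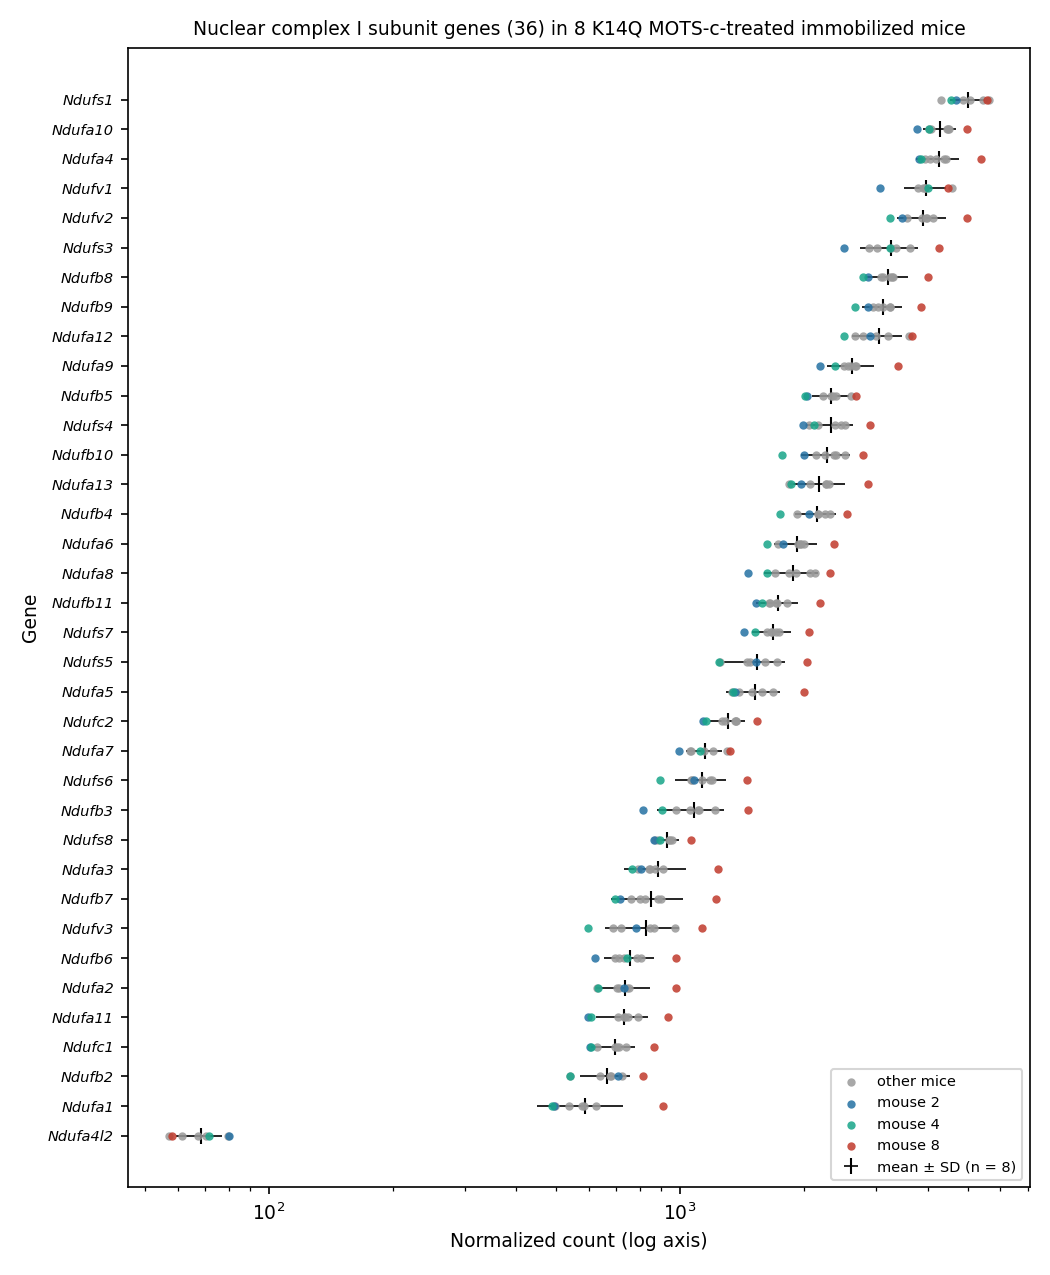
Normalized counts on a log axis (horizontal) for 36 subunit genes (vertical, ordered by mean), with 1 point per mouse and the mean ± SD of 8 mice in black. Means span 68.23 (Ndufa4l2) to 5021 (Ndufs1), and the red points of mouse 8 lie at the right-hand end in 33 of these 36 genes.

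To compare levels between genes, normalized counts were divided by gene length in kilobases. With the length of all exons of a gene joined, Ndufa4 at 3082 ± 368.9 (SD, n = 8) and Ndufb9 at 3024 ± 344.2 were among the highest. The lowest were Ndufa4l2 at 62.31 ± 8.142, Ndufb2 at 118.1 ± 16.43 and Ndufb7 at 187.9 ± 37.34. Of the 36 pairs of neighbours in this order, 9 were ordered the same way in all 8 mice, 6 in 7 of 8 and the other 21 in 6 or fewer, and the order of those 21 neighbours is not resolved beyond the spread. Genes farther apart did differ, such as Ndufc2 at 1736 ± 171.1 and Ndufs8 at 717.9 ± 50.32. Ndufa4 exceeded Ndufb9 in 5 of 8 mice, whereas Ndufb9 exceeded Ndufa8 in 8 of 8. The order depends on the length chosen: of the 10 highest genes, 7 were shared with the length of the longest transcript and 6 with that of the principal transcript. Ndufb7, for example, moved from 187.9 to 1364 per kilobase when its principal transcript of 623 bases was used in place of 4522 exon bases. With principal transcripts, 28 of 37 members lay within 2-fold of the median of 1906 normalized counts per kilobase. The median was 2301 for the 7 core genes and 1859 for the 28 accessory genes on the same scale.

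Between mice, most subunit genes varied less than the median gene. The coefficient of variation had a median of 13.29% over the members against 15.59% over all genes tested, and 30 of 37 members lay under the latter value. It was 11.61% in the median of the core genes and 13.82% in that of the accessory genes. The smallest values were those of Ndufs8 (7.009%), Ndufa10 (8.998%) and Ndufs1 (9.831%), and the largest those of Ndufa1 (23.57%), Ndufv3 (20.48%) and Ndufb7 (19.87%). Without mouse 8 the median over the members was 9.196%. Genes were not matched on level for this comparison.

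The subunit genes rose and fell together. Pearson's r of log2(normalized count + 1) between 2 members over the 8 mice had a median of 0.7701 over the 666 pairs, against -0.0012 over pairs of all tested genes. A median r of this size was not particular to them: it was 0.7848 for the genes of complex II, 0.7702 for complex III, 0.8124 for complex IV, 0.7882 for complex V and 0.8221 for 7 skeletal muscle markers. All points of such an r share the same libraries, and the value is a description. Of the 666 pairs, 629 were positive. Ndufa4l2 had a negative r with all 36 other members, from -0.806 (with Ndufc1) to -0.255, and only 1 other pair was negative. The closest pair was Ndufb9 and Ndufv2 (0.9883), followed by Ndufb9 and Ndufb8 (0.9861) and Ndufv2 and Ndufb8 (0.9836). The value depended on mouse 8: without it the median over pairs was 0.5156 with 569 positive pairs, although Ndufb9 and Ndufv2 kept an r of 0.9707. The gene most like the mean of all other members was Ndufb8 (0.9898), and the least like it after Ndufa4l2 was Ndufv1 (0.5294).

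Mouse 8 had the highest level of 34 of 37 members, whereas it was the highest mouse for 18.0% of all tested genes. The exceptions were Ndufv1 (highest in mouse 5), Ndufs1 (highest in mouse 7) and Ndufa4l2 (highest in mouse 2). Mouse 8 was also the lowest mouse for 20.7% of all tested genes and for 0 members. Both of its shares of all genes were the largest of any mouse. Mouse 2 had the lowest level of 17 members, against 13.5% of all genes, and mouse 4 that of 15, against 10.4%. Which mouse was lowest depended on the scaling: with library totals, mouse 2 was the lowest in 27 members (15.9% of all genes) and mouse 4 in 1 (3.54%), while mouse 8 was the highest in 29 (12.1%). On the log2 scale, the median deviation of the members from their own means was 0.33 in mouse 8, -0.19 in mouse 4 and -0.17 in mouse 2. The value in mouse 8 corresponds to 1.256 times the geometric mean of a gene. The other 5 mice lay between -0.05 and 0.05. Over all tested genes the median deviation was between -0.00072 and 0.018 in every mouse. Library totals moved that median by -0.13 in mouse 7 to 0.21 in mouse 3 and the members with it. The members' deviation relative to all genes was 0.33 in mouse 8, -0.21 in mouse 4 and -0.17 in mouse 2 under both scalings. That sameness is no separate result, because 1 factor per library shifts all genes alike on the log2 scale. In summed normalized counts, the 37 members came to 79583 ± 8684 (SD, n = 8), from 70209 in mouse 2 to 98239 in mouse 8 with a median of 79589.7. As a share of all counts in the library this was 0.2698% ± 0.0326, lowest in mouse 2 (0.2234%) and highest in mouse 8 (0.3275%).

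**Figure D3:**
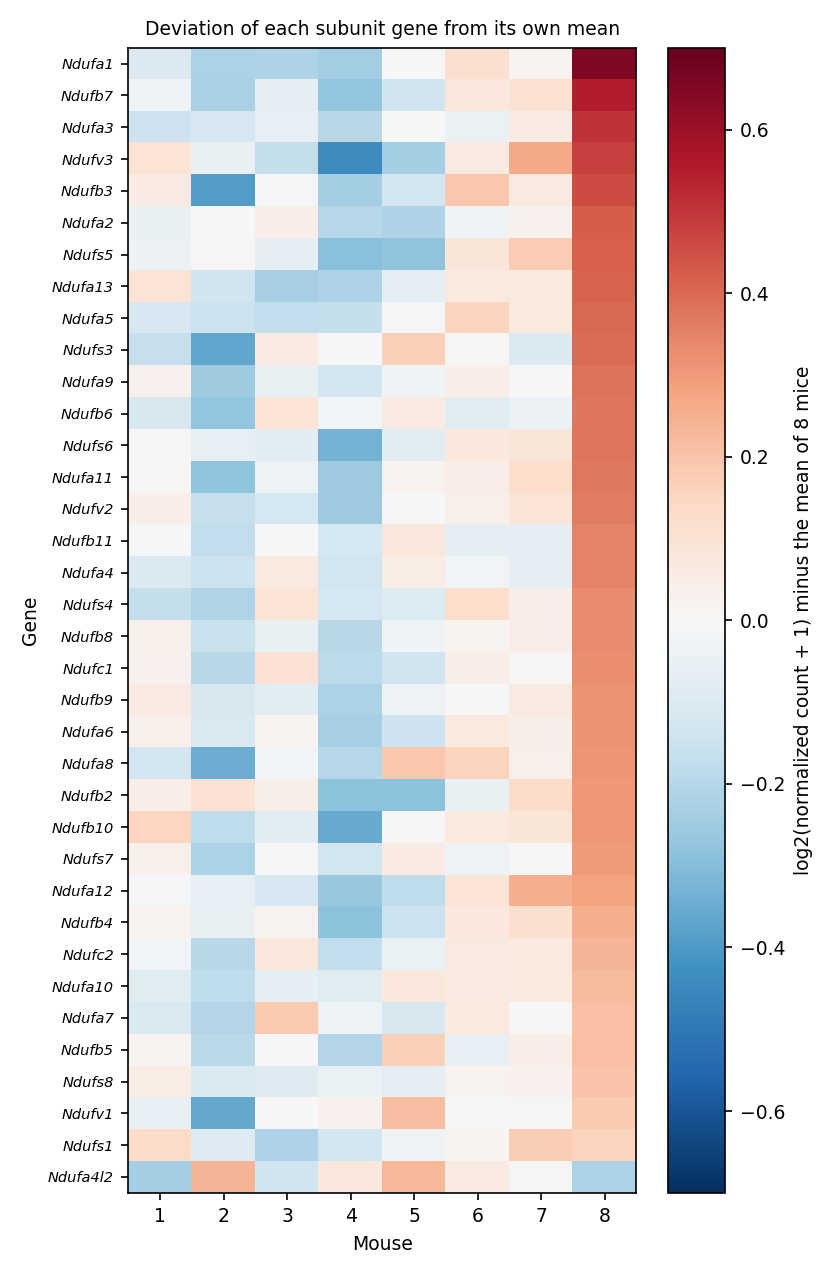
Deviation of each of 36 subunit genes (vertical, ordered by its value in mouse 8) from its own mean over the 8 mice (horizontal), in log2(normalized count + 1), red above and blue below the mean. Mouse 8 is red in 35 of these 36 genes, and mice 2 and 4 are mostly blue, against medians over all 37 members of 0.33, -0.17 and -0.19.

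Members have short transcripts, with a median principal transcript of 908 bases against 2663 for all tested genes and a median GC content of 52.21% against 50.02%. The 2390 tested genes under 1000 bases, 22 members among them, had a median deviation of 0.17 in mouse 8 and -0.10 in mouse 2, on the same side as the members. They were also on the same side in mouse 5 (-0.03 for the short genes and -0.03 for the members), mouse 6 (0.05 and 0.05), mouse 7 (0.02 and 0.05) and mouse 4 (-0.03 and -0.19). In mouse 1 (-0.09 and 0.007) and mouse 3 (0.06 and -0.05) they were on opposite sides. The part of transcript length in the members' order of mice was not tested beyond the trend removal that follows. With the trends on GC content and length removed from each library, which was chosen after seeing the data, the members' median deviation in mouse 8 was 0.23 and mouse 8 was the highest in 28 of 37 (18.4% of all genes). In mouse 2 the deviation was then -0.10 in place of -0.17 and the members lowest there were 10 in place of 17, whereas mouse 4 stood at -0.17 and was the lowest in 18 (11.6% of all genes).

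Other nuclear genes of the respiratory chain were read from lists to see whether the mouse pattern went beyond complex I. Median deviations in mouse 8 were 0.23 for 4 complex II genes, 0.35 for 9 complex III genes, 0.38 for 11 complex IV genes and 0.29 for 16 complex V genes, of which 2 share the symbol Atp5o. Mouse 8 was the highest in 3 of 4, 9 of 9, 10 of 11 and 16 of 16 of them. In mouse 2 the medians were -0.36, -0.24, -0.13 and -0.24. The 16 assembly factors measured, which build the complex but are not part of it, had a median deviation of 0.16 in mouse 8, and 6 of 16 peaked there. Of the 17 listed, Coa1 was not matched by symbol. Ndufaf4, which acts early in the building of the matrix arm, ranged from 904.7 in mouse 2 to 1105 in mouse 5, and Ndufaf1, which joins membrane intermediates, from 498 in mouse 5 to 656.8 in mouse 8.

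The 7 subunits of complex I encoded in mitochondrial DNA followed another order. Their median deviation was -0.11 in mouse 8, -0.47 in mouse 4 and -0.46 in mouse 3, but 0.34 in mouse 2, 0.28 in mouse 1 and 0.46 in mouse 7. Per kilobase of transcript, mt-Nd4, a proton-pumping core subunit, had the highest mean level of them at 454999 and mt-Nd6 the lowest at 17722. Of the 7, mt-Nd3 alone was highest in mouse 8. The summed mitochondrial subunit levels were divided by the sum over all 37 members, Ndufa4 and Ndufa4l2 included. This ratio was 21.69 ± 5.83 (SD, n = 8), from 15.59 in mouse 3 and 15.66 in mouse 8 to 30.87 in mouse 2. Poly-A capture was used, so this ratio and the order of the mitochondrial genes compare captured RNA and not transcript numbers.

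**Figure D4:**
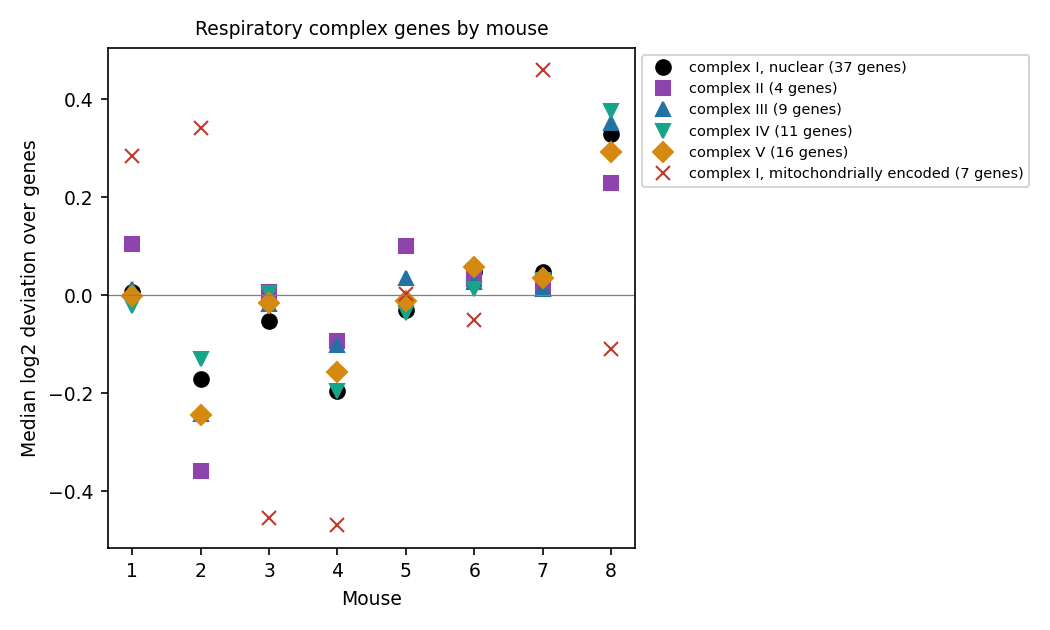
Median log2 deviation from the gene means (vertical) in each of the 8 mice (horizontal) for the nuclear genes of complexes I to V and the mitochondrially encoded complex I genes. The 5 nuclear lists peak in mouse 8 (0.23 to 0.38) and are apart in mouse 2 (-0.36 for complex II to -0.13 for complex IV), whereas the mitochondrially encoded genes stand at -0.11 in mouse 8 and 0.34 in mouse 2.

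Of 10 known regulators of these genes, 6 were highest in mouse 5 (15.9% of all genes), 3 in mouse 2 (13.1%) and 1 in mouse 8 (18.0%), and the median deviation of the list was 0.22 in mouse 5 and -0.13 in mouse 8. Ppargc1a, the coactivator of mitochondrial gene programmes, ranged from 1092 in mouse 6 to 2903 in mouse 5, and Esrra, the receptor it works with, from 575 in mouse 2 to 896.9 in mouse 5. Tfam, which packages and transcribes mitochondrial DNA, ranged from 791.6 in mouse 4 to 1003 in mouse 8 and was the only regulator highest in mouse 8. Mouse 8 was the lowest for 4 of the 10 regulators, and for 20.7% of all genes. These were Gabpa (749.9), Esrrg (528.7), Ppara (81.01) and Ppargc1b (48.17).

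Markers of other cell types also moved with mouse 8. Median deviations there were -1.61 for 5 tendon genes, -0.95 for 4 adipocyte genes, -0.80 for 5 blood genes, -0.68 for 5 macrophage genes, -0.43 for 5 fibroblast genes, -0.35 for 5 Schwann cell genes and -0.24 for 5 endothelial genes. Of these 34 genes, 31 lay below their own mean in mouse 8. Among the exceptions were the tendon gene Scx and the endothelial gene Cldn5, which were highest in mouse 8 at 86.48 and 295.6. Median deviations of 7 skeletal muscle genes and 7 slow fibre genes were 0.33 and 0.55. Summed normalized counts of the tendon markers ran from 897.6 in mouse 8 to 6122 in mouse 1, and those of the blood markers from 7059.6 in mouse 8 to 28319.6 in mouse 5. For the fibroblast markers they ran from 9846 in mouse 7 to 18365 in mouse 2, for the macrophage markers from 1116 in mouse 7 to 2851 in mouse 4, and for the adipocyte markers from 3427 in mouse 6 to 6034 in mouse 2. Endothelial markers summed to 3316 in mouse 8 and 4929 in mouse 2, Schwann cell markers to 1603 in mouse 5 and 3894 in mouse 7, and slow fibre markers to 11744 in mouse 3 and 23403 in mouse 1. All listed markers had at least 10 counts in every library except Lep of the adipocyte list, with 6 to 51 counts. The part of tissue makeup in the high subunit levels of mouse 8 was not tested.

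Whether subunit genes followed a partner gene between mice was tested with an exact two-sided permutation test of Pearson's r over all pairings of the 8 mice, for 5 partners and 185 relations of members. A relation was counted at an unadjusted p under 0.05, and adjusted p-values are Benjamini-Hochberg values over all 15134 genes tested with a partner. No gene of the whole table reached an adjusted p under 0.05 with any of the 5 partners, and the smallest was 0.06256, with mt-Nd1. The counts below therefore rest on unadjusted p-values.

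With mt-Nd1, a membrane core subunit from mitochondrial DNA at 229497 to 465378 normalized counts, 2 members had a positive r past the threshold (5.41%, against 7.47% of all genes) and none a negative one (7.49%). They were Ndufs1 (r = 0.791, exact permutation p = 0.02217, adjusted p = 0.2538, rho = 0.786 with exact p = 0.02793) and Ndufv3 (r = 0.720, exact permutation p = 0.04375, adjusted p = 0.3204, rho = 0.786 with exact p = 0.02793). Without mice 4 and 7, which were farthest from the median of mt-Nd1, r was 0.694 for Ndufs1 and 0.460 for Ndufv3. The member with the lowest r was Ndufa7 (-0.325, exact permutation p = 0.4267, adjusted p = 0.7526), and 30 of 37 were positive with a median of 0.324. By contrast, all 6 other mitochondrially encoded subunits passed with mt-Nd1. The count of members was 0 without mouse 3 or mouse 7, 1 without mouse 1, 4, 5 or 6, and 4 without mouse 2. Without mouse 8 it was 3 (7.76% of all genes), and shares of all genes were not computed for the other mice left out. The count was 6 (7.55% of all genes) with the trends on GC content and length removed. With library totals 0 members were positive (1.77%) and 1 was negative (29.1%).

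Sdha, the flavoprotein of complex II, ranged from 10759 in mouse 2 to 13464 in mouse 1. Of the members, 3 had a positive r past the threshold (8.11%, against 1.80% of all genes) and none a negative one (1.10%). Among them were Ndufs1 (r = 0.739, exact permutation p = 0.03901) and Ndufb10 (r = 0.727, exact permutation p = 0.03901), each with an adjusted p of 0.9997. Their rho values were 0.571 (exact p = 0.1511) and 0.714 (exact p = 0.05759). Leaving out mice 1 and 2, the farthest from the median of Sdha, gave r of 0.745 and 0.715. Over all members the median r was 0.438 and 35 of 37 were positive, with Ndufa4l2 the lowest (-0.435, exact permutation p = 0.278, adjusted p = 0.9997). The count rested on single mice, being 10 without mouse 1, 1 without mouse 7 and 0 without mouse 2, 3, 4 or 6. Without mouse 8 it was 4 (2.05% of all genes), and shares of all genes were not computed for the other mice left out. The count was 11 with library totals (9.77% of all genes) and 13 with the trends on GC content and length removed (2.64%).

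For Ppargc1a no member passed in either direction (against 4.49% and 3.96% of all genes). The r of members ran from -0.505 for Ndufb2 (exact permutation p = 0.2092, adjusted p = 0.7747) to 0.540 for Ndufv1 (exact permutation p = 0.1814, adjusted p = 0.7476), with a median of -0.121. Myh4, the myosin of fast glycolytic fibres at 839797 to 2063673 normalized counts, also had no member past the threshold (6.57% and 7.78% of all genes). The extremes were Ndufs1 (r = 0.704, exact permutation p = 0.05538, adjusted p = 0.3586) and Ndufa7 (r = -0.497, exact permutation p = 0.2111, adjusted p = 0.5745), around a median of 0.134. Without mouse 8, 2 members passed with Myh4 (7.28% of all genes), all with a positive r. Without mouse 2, 1 member passed, also with a positive r, and the share of all genes was not computed. The setting decided both the number and the sign, with 10 positive members when the trends on GC content and length were removed (8.39% of all genes) and 4 negative ones with library totals (27.7%).

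Dcn, which encodes the proteoglycan decorin of connective tissue, ranged from 6835 in mouse 7 to 13748 in mouse 2. Its r was negative with 36 of 37 members, with a median of -0.532 against -0.0363 over all genes. Past the threshold were 5 members, all negative (13.5%, against 4.86% of all genes), and none was positive (7.44%). They were Ndufa10 (r = -0.802, exact permutation p = 0.01761, adjusted p = 0.3202), Ndufs4 (r = -0.759, exact permutation p = 0.02964, adjusted p = 0.3493), Ndufa8 (r = -0.741, exact permutation p = 0.03539, adjusted p = 0.3699), Ndufc2 (r = -0.721, exact permutation p = 0.03993, adjusted p = 0.3851) and Ndufa11 (r = -0.705, exact permutation p = 0.0464, adjusted p = 0.3981). Their rho values lay between -0.833 (exact p = 0.01538, Ndufs4) and -0.690 (exact p = 0.06939, Ndufa8). Without mice 2 and 7, the farthest from the median of Dcn, r was -0.858 for Ndufs4, -0.772 for Ndufa10 and -0.768 for Ndufa8, and -0.641 for Ndufc2 and -0.568 for Ndufa11. Ndufa4l2 was the only member with a positive r (0.249, exact permutation p = 0.5424, adjusted p = 0.8363). The count of negative members was 0 without mouse 2, 1 without mouse 6, 2 without mouse 8 (3.72% of all genes), 3 without mouse 3 or 5 and 9 without mouse 7. Apart from mouse 8, shares of all genes were not computed with a mouse left out. The count was 2 with the trends on GC content and length removed (4.55% of all genes), 2 with TMM factors (3.87%) and 0 with library totals (1.10%).

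**Figure D5:**
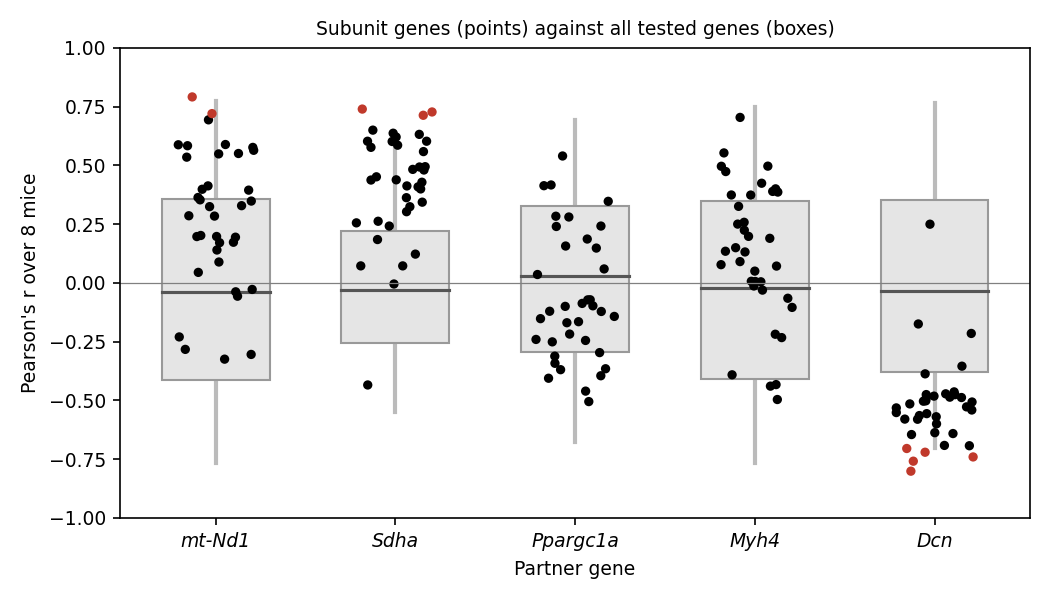
Pearson's r over 8 mice (vertical) of the 37 subunit genes (points, red where the unadjusted exact p was under 0.05) with each of 5 partner genes (horizontal). Boxes hold the middle of all tested genes (quartiles, line at the median) and grey lines reach from the 5th to the 95th percentile; members lie mostly above the median for Sdha and below it for Dcn, with medians of 0.438 and -0.532.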

How the data were processed

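The mRNA-seq libraries (poly-A capture, without molecular identifiers) of 8 mice were sequenced on an Illumina NextSeq. According to the study's methods and the submitters' processing notes, reads were checked and trimmed with FastQC and fastp, mapped to GRCm38.p6 with STAR and counted per gene with summarizeOverlaps; the annotation release, strand setting and multi-mapping rule are not given in the sources used here. The deposited signal is the count of a gene divided by 1 size factor per library (0.9059 to 1.204): 100.0% of the nonzero values were whole multiples of 1 step within 0.01 of a read, so that counts were recovered. The design had assumed raw counts. With 1 condition, no count test was run.

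GENCODE release M21 (GRCm38) held 55227 of the 55487 gene identifiers and gave symbols, types, exons, lengths and GC content. Genes needed at least 10 counts in every library. Deviations and correlations used log2(value + 1). Exact permutation tests were two-sided. All 8 samples are separate mice per the labels' replicate numbers, and the study gives 8 mice per group for the immobilization experiment, assigned to groups at random. Other settings tried were scaling by TMM factors (edgeR) or by library totals, no count minimum, a pseudocount of 5, Spearman correlation, other transcript lengths, the median over mice and leaving out each mouse. Principal transcript length, and trends on GC content and length removed, were chosen after seeing the data. Members, lists and partners were chosen with earlier results of these data known. Every member was named with its level, except that 1 is not reported here and counts only in totals, medians and numbers of members; full values were given for core genes, Ndufa4, Ndufa4l2, the extremes of level per kilobase, of spread and of r with each partner, and genes with 1 mouse far from the rest. The overlapping genes, regulators and assembly factors named were picked after their values were seen. The correlation step was tested on simulated data. The software was blastn 2.17.0, edgeR 4.0.16 in R 4.3.3, and Python 3.11.15 with scipy 1.17.1, numpy 2.4.6, matplotlib 3.10.9 and pandas 2.3.3.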

Additional observations from a re-analysis of the deposited data

Results flagged for a closer look

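In 9 of the 37 members, mouse 8 lay far above the other 7 mice, as judged by its gap to the next mouse divided by the whole range (Dixon's ratio, past its 95% critical value). The ratio was 0.6939 for Ndufa3, 0.6777 for Ndufa1, 0.6426 for Ndufa2, 0.6145 for Ndufb7, 0.6042 for Ndufa4, 0.5843 for Ndufa9, 0.5808 for Ndufb8, 0.5561 for Ndufb11 and 0.5462 for Ndufa13. Among all tested genes, 6.00% had 1 mouse past this value at either end, and chance alone would pass about 5% of groups, or 1.85 of 37. The members share the same mouse, so these are not 9 separate observations. The same mouse stood apart in the summed level of the members (ratio 0.5990) and in their median log2 deviation (ratio 0.5360).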

How the results depend on the processing

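No paired analysis was possible because the 8 mice form a single group. Mean levels moved by less than 1 SD under all 370 combinations of member and alternative tried, which says little about their stability. Leaving out 1 of 8 mice cannot shift a mean by 1 SD, and the other scalings were set to the same average factor. Library totals shifted the median deviation of all genes by -0.13 in mouse 7 to 0.21 in mouse 3. Under library totals the members' median deviation changed sign to 0.1627 in mouse 3, -0.08220 in mouse 7 and -0.1224 in mouse 1 and became -0.03109 in mouse 4 and 0.3064 in mouse 8, which was the highest in 29 of 37 members (12.1% of all genes). Under TMM factors mouse 8 was the highest in 34 (18.3% of all genes; 0.3324). The median r between members was 0.5156 without mouse 8 to 0.8187 without mouse 5, 0.6429 by Spearman's rho and 0.6311 with the trends on GC content and length removed. Of the 10 highest genes per kilobase, 6 were shared with principal transcripts.

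Counts of members that followed a partner were less stable, and the cause was not tested. Under library totals they were 0 positive (1.77% of all genes) and 1 negative (29.1%) for mt-Nd1 and 11 positive for Sdha (9.77%). For Myh4 they were 4 negative (27.7%) and for Dcn 0 negative (1.10%). With the trends on GC content and length removed they were 6 positive for mt-Nd1 (7.55%), 13 positive for Sdha (2.64%), 10 positive for Myh4 (8.39%) and 2 negative for Dcn (4.55%). TMM factors gave 2 negative for Dcn (3.87%), and Spearman's rho gave 8 negative for Dcn and 1 negative for Myh4. Leaving out each mouse gave 0 to 4 positive for mt-Nd1, 0 to 10 positive for Sdha, 0 to 2 positive for Myh4 and 0 to 9 negative for Dcn. Shares of all genes were not computed for Spearman's rho, nor with a mouse other than mouse 8 left out. With Ppargc1a no member passed under any of these settings. Depth limits Ndufa4l2 most, with 53 counts in its lowest library.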
